A study of Mus musculus with 8 samples.

Results

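Long intergenic noncoding RNAs (lincRNAs) are transcripts from stretches of genome between protein-coding genes, and on the array used here each was represented by one or more 60-base probes to a genomic interval and 1 strand. The array carried 16181 such probes for 4607 regions, a region being one interval on one strand (F, the plus strand, or R, the minus strand). A probe was kept when either genotype had 3 or 4 arrays on which the scanner software called it well above background, and the kept probes of a region were averaged. That left 6170 probes (38.1%) and 2863 regions (62.1%), against 66.6% of all other probes. Of the kept probes, 5269 passed in both genotypes, 237 through miR-126+/+ alone and 664 through miR-126-/- alone; the last 2 kinds passed where they were brighter, which weights them towards a difference. The 716 probes just inside the threshold had a median log2 signal of -4.55 and the 833 just outside it -4.96, relative to the array's 75th percentile. Kept regions had a median length of 11383 bases, against 9301 for the others, and 1300 of them had 1 kept probe and 1563 had 2 or more. The share of regions kept ran from 52.8% on chromosome X to 69.1% on chromosome 17.

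The study profiled carotid arteries after wire injury, in which a wire drawn through the vessel strips the endothelium and a neointima then forms. Each of the 8 samples was total RNA from the injured carotid artery of 1 female mouse, 6 weeks old by its label, of mixed genetic background, on a western-type diet, taken 14 days after injury; 100 ng was labelled with Cy3. All mice lacked ApoE (ApoE-/-), which makes mice prone to atherosclerosis. The control group was miR-126+/+ (n = 4), and the other group was miR-126-/- (n = 4), which lacks the microRNA miR-126; the labels used here do not say how the allele was made. No uninjured artery was among the samples used here.

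As background, lincRNAs are often spliced and polyadenylated like messenger RNAs, are usually expressed at low levels and in few cell types, and act in the nucleus on chromatin and transcription or in the cytoplasm on RNA and protein; most have no known function. miR-126 is an endothelial microRNA processed from an intron of Egfl7 that acts on messenger RNAs through its seed. It is best known for its part in vessel integrity, endothelial repair and leukocyte adhesion.

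The sequences that carried the regions with the clearest differences are given from the array files in lower case, 5′ to 3′, with mm9 positions. The first region, on the minus strand at chr7:71220656-71221612, had 3 probes, and all are shown because a single one of them was kept. Capitals mark the longest word present in all 3, found by a search made after the sequences were seen:
chr7:71220724-71220783, not kept: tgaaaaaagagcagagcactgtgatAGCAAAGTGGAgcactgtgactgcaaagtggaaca
chr7:71220828-71220887, kept: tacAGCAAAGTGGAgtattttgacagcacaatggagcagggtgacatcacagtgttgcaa
chr7:71221058-71221117, not kept: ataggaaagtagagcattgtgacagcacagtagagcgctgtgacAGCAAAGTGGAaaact

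The word AGCAAAGTGGA (11 bases) stood in 5 of all 16181 lincRNA probes (0.031%), from 3 regions, and its reverse complement TCCACTTTGCT in 1. The second region, on the minus strand at chr17:33372482-33375285, had 3 probes, of which the first and the second lie end to end. Nothing is in capitals here:
chr17:33372487-33372546, not kept: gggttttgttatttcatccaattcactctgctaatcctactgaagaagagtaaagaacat
chr17:33372547-33372606, kept: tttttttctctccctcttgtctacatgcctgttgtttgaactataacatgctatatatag
chr17:33373050-33373109, not kept: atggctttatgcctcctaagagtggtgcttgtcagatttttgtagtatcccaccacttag

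The third region, on the minus strand at chr13:53100475-53113850, had 4 probes, and its kept pair is shown because the 2 probes gave differences of unequal size:
chr13:53113498-53113557, kept: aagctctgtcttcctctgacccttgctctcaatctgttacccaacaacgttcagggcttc
chr13:53113644-53113703, kept: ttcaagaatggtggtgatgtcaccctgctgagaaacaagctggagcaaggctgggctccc

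Signal is given throughout as log2 of the scanner's processed signal minus the log2 of that array's 75th percentile, so that 0 is the 75th percentile of the array; a difference is the mean of miR-126-/- minus the mean of miR-126+/+, ± its standard error from limma. Levels of different regions are not read as amounts of RNA, since probes differ in how well they bind. The 75th percentile lay between 518.2 and 736.1 intensity units, and between 34.57% and 43.7% of lincRNA probes on an array were well above background, against 55.9% to 61.5% of all probes. Correlations between arrays over the 2863 regions were 0.944 to 0.97 within miR-126+/+, 0.951 to 0.973 within miR-126-/- and 0.933 to 0.961 between genotypes. All arrays were on 1 slide, with miR-126+/+ in slide row 1 and miR-126-/- in slide row 2, so genotype and slide row cannot be told apart. Array miR-126-/- 4 had a dim area (grid rows 55 to 100, columns 56 to 70), which held a kept probe of 63 regions. Among lists of cell type markers, all 25 adipocyte genes were higher in miR-126-/- (median difference 1.28; list mean -1.18 to 0.25 on miR-126+/+ arrays and 0.12 to 0.96 on miR-126-/- arrays). Other lists were higher for 14 of 14 lymphocyte, 15 of 16 endothelial, 11 of 15 smooth muscle, 9 of 15 macrophage, 20 of 23 skeletal muscle and 7 of 15 nerve genes, and no gene of these lists passed the test. In RNA from whole vessel, fewer cells of a type and less RNA per cell cannot be told apart.

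Few lincRNA regions passed the test between the genotypes. In limma's moderated test with Benjamini-Hochberg adjustment over all 23831 features (2863 lincRNA regions and 20968 other genes), 3 lincRNA regions (0.105%) passed an adjusted p of 0.05, where 0.0504% of all features did. Of these, 2 were higher in miR-126-/- (0.0294% of all features) and 1 was lower (0.021%). The count is too small to set the lincRNAs apart from the rest of the array. Of the 3, 2 had no probe that passed the filter in both genotypes, so the filter admitted them through the genotype where they were bright, and with a filter on all 8 arrays 0 regions were called (227 at an unadjusted limma p under 0.05). At an unadjusted p under 0.05 there were 353 regions (12.3%), 186 higher and 167 lower, beside 10.2% of all features (6.78% higher, 3.42% lower). The 4 values of a genotype all lay outside those of the other in 183 regions (6.39%; 89 higher, 94 lower), beside 6.21% of all features (4.01% higher, 2.2% lower). With the mean of the adipocyte list as a covariate 0 regions passed the adjusted threshold and 199 had an unadjusted p under 0.05, 156 higher and 43 lower. That split was 85 higher and 118 lower of 203 with normexp background correction, 130 and 207 of 337 with no filter, and 218 and 127 of 345 without miR-126+/+ 3, so the balance of directions depends on the processing.

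Differences were small for the lincRNAs as a group. The median difference was 0.019, against 0.009 over all features, and 1551 regions were higher and 1312 lower in miR-126-/-; the median took the opposite sign with normexp background correction (-0.022). The median size of a difference was 0.17, with a median within-genotype SD of 0.26, against 0.13 and 0.22 for other genes. A difference of 2-fold or more was measured in 77 regions (2.69%), where 3.22% of all features had one. Of the 77, 43 were higher (1.96% of all features), 34 were lower (1.26%) and 62 rested on 1 kept probe. The genotypes did not overlap in 34 of the 77. Choosing large differences favours that count, and the like share among all features of 2-fold or more was not computed, so it is not read as a result.

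The called region lower in miR-126-/- was chr7:71220656-71221612 on the minus strand, 957 bases long. Its signal was -4.54, -3.87, -3.96 and -4.73 on the 4 miR-126+/+ arrays and -7.32, -7.16, -6.89 and -6.88 on the 4 miR-126-/- arrays. Every miR-126-/- array was below every miR-126+/+ array, by more than 2 log2 units. The difference was -2.79 ± 0.22 (limma adjusted p = 0.0157). The kept probe was well above background on 3 miR-126+/+ arrays and on 0 miR-126-/- arrays. It thus passed the filter through miR-126+/+ alone, its level in miR-126-/- is only bounded, and signal in miR-126+/+ was at least 1.83-fold higher. That bound sets the mean of the bright genotype against, on each array of the other, the higher of the probe's own signal and the dimmest signal well above background. The probes on either side of it, which share its repeated word, were not well above background on any array and gave differences of -1.31 and -0.40. The nearest gene with a probe was Klf13, a Krüppel-like transcription factor, 137743 bases away on the opposite strand, with a difference of -0.13 ± 0.09. It stayed past the threshold in each fit that left out 1 array except the one without miR-126-/- 2 (adjusted p = 0.0548). With normexp background correction it was -0.62 (adjusted p = 0.124), with the adipocyte list as a covariate -2.77 (0.481), with the replicate number as a block -2.79 (0.104) and with no filter, which averages all 3 probes, -1.5 (0.264).

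The region at chr17:33372482-33375285 on the minus strand, 2804 bases long, was higher in miR-126-/-. Its signal was -6.0, -5.68, -5.95 and -5.68 in miR-126+/+ and -4.31, -4.62, -4.46 and -4.52 in miR-126-/-. The genotypes did not overlap, and each varied by less than 0.4 between its arrays. The difference was 1.35 ± 0.12 (limma adjusted p = 0.0162), and as its kept probe was well above background on 0 miR-126+/+ arrays and all 4 miR-126-/- arrays, it passed the filter through miR-126-/- alone and signal there was at least 1.31-fold higher. The probe that lies end to end with it gave a difference of -0.14 and the probe beyond gave 0.43, neither above background on any array. Zfp955a, a zinc finger gene, had its probe 1558 bases away on the same strand and a difference of 0.05 ± 0.11. The region missed the threshold in 11 of 20 alternatives, among them the fits without miR-126+/+ 1, miR-126+/+ 2, miR-126-/- 1, miR-126-/- 2 and miR-126-/- 3 (adjusted p from 0.0517 to 0.0739), and was 0.16 with normexp background correction (adjusted p = 0.619) and 0.55 with no filter (0.304).

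The region at chr13:53100475-53113850 on the minus strand was also higher in miR-126-/-. Its signal was -5.27, -4.7, -4.97 and -4.7 in miR-126+/+ and -3.53, -3.23, -3.01 and -3.27 in miR-126-/-, again with no overlap. The difference was 1.65 ± 0.17 (limma adjusted p = 0.0292). All 4 probes of the region lay near the end of the interval with the higher mm9 positions. All were higher in miR-126-/-: the kept probes by 0.88 and 2.42, the others by 0.91 and 0.83. The probe at 0.88 was well above background on all 8 arrays, and the one at 2.42 on the 4 miR-126-/- arrays and no other. The nearest gene with a probe was Nfil3, a basic leucine zipper transcription factor, 37838 bases away on the same strand (-0.39 ± 0.32), followed by Ror2, a Wnt receptor (-0.36 ± 0.16). The region missed the threshold in 13 of 21 alternatives, among them each fit that left out 1 array except the one without miR-126+/+ 4 (adjusted p from 0.0553 to 0.123 in the others). Its difference was 0.46 with normexp background correction (adjusted p = 0.129) and 0.88 when only probes above background on all 8 arrays were kept (adjusted p = 0.0556).

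Over the 8 arrays, the regions most like the chr17 region were the chr13 region (Pearson r = 0.969) and chr17:84355587-84356863 on the plus strand (0.932). The latter was also second for the chr13 region (0.959). The region most like the one on chromosome 7 was chr5:23363666-23371611 on the minus strand (0.958). The difference between genotypes is part of each of these correlations.

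Beyond these 3, the regions with the smallest p-values in each direction did not pass the adjusted threshold, and their values are given as measurements. Taking the 16 regions together, 12 rested on 1 kept probe although 15 had more than 1 designed. In 5 the level in 1 genotype was not well above background on any of its arrays.

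Among those lower in miR-126-/-, chr5:23363666-23371611 on the minus strand had signals of -3.75, -3.51, -2.81 and -3.76 in miR-126+/+ and -6.8, -6.26, -6.92 and -5.42 in miR-126-/-. The difference was -2.89 ± 0.36 (limma adjusted p = 0.0519), and signal was at least 3.22-fold higher in miR-126+/+, since the probe was above background on all 4 arrays there and on 0 in miR-126-/-. Its kept probe is shown because it holds a 10-base word 2 times, in capitals, which 1.21% of lincRNA probes match or exceed for the length of their longest repeated word:
chr5:23363777-23363836, kept: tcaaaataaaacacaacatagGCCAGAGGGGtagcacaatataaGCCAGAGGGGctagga

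The probes just before and after it on the chromosome gave -0.17 and 0.39 and were above background on no array. Tomm7, part of the mitochondrial protein import machinery, lay 18123 bases away with a difference of 0.28 ± 0.15. The region chr9:41137539-41353289 on the minus strand spans 215751 bases. The nearest gene probe, that of Mir100hg, the host transcript of miR-100, lay 45049 bases outside it on the opposite strand and differed by 0.42 ± 0.26. The region's single kept probe read -1.22, -1.32, -0.92 and -1.48 in miR-126+/+ and -2.97, -2.46, -2.81 and -3.45 in miR-126-/-, above background on all 8 arrays. Its difference was -1.69 ± 0.22 (limma adjusted p = 0.0533). The other probes of the region gave -0.23, 0.58 and -0.25 near background. The kept probe was:
chr9:41242394-41242453, kept: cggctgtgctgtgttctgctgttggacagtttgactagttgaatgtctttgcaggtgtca

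The region chr5:106353430-106353843 (plus strand, 9042 bases from the Zfp326 probe) had a difference of -2.74 ± 0.45 (limma adjusted p = 0.107), with at least 2.11-fold higher signal in miR-126+/+. Its kept probe was well above background on 3 miR-126+/+ arrays and 0 miR-126-/- arrays, so it passed the filter through miR-126+/+ alone. Smaller falls with little spread were measured at chr17:13812666-13820504 (minus strand, -0.93 ± 0.12, limma adjusted p = 0.0543), chr19:23264899-23268776 (minus strand, between Smc5 and Klf9, -0.70 ± 0.10, 0.0665) and chr8:19959345-20020379 (minus strand, over the pseudogene 2610005L07Rik, -0.49 ± 0.09, 0.139). The region chr7:77555482-77634858 on the plus strand lies 58550 bases from the probe of Nr2f2, a nuclear receptor that sets venous endothelial identity, and on its opposite strand. It read -1.36, -1.13, -1.05 and -1.08 in miR-126+/+ and -1.94, -1.99, -1.83 and -1.55 in miR-126-/-. Its difference was -0.67 ± 0.13 (limma adjusted p = 0.149) and that of Nr2f2 was -0.28 ± 0.18.

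Among those higher in miR-126-/-, chr9:89167172-89168980 on the plus strand was measured well above background on all 8 arrays. Its kept probe read -0.3, -0.24, -0.07 and -0.59 in miR-126+/+ and 0.91, 1.21, 1.52 and 2.11 in miR-126-/-, with no overlap and a wider spread in miR-126-/- (SD 0.51 against 0.22). The difference was 1.74 ± 0.25 (limma adjusted p = 0.0659). The region's other probes, above background on no array, gave -0.17 and 0.16, and Mthfs, a folate enzyme gene 57049 bases away, gave -0.12 ± 0.14. The kept probe was:
chr9:89168696-89168755, kept: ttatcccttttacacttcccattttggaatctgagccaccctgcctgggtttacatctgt

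The region chr14:33115110-33131171 (plus strand, 4889 bases from the probe of Parg, which removes poly(ADP-ribose)) had a difference of 1.13 ± 0.16 (limma adjusted p = 0.0572). Its 2 kept probes, which lie end to end, gave 1.79 and 0.47. The first was well above background on 0 miR-126+/+ arrays and 3 miR-126-/- arrays, and the second on 2 and 4. Both thus passed the filter through miR-126-/- alone. At chr17:84355587-84356863 on the plus strand, where all 3 probes were kept, the difference was 0.84 ± 0.14 (limma adjusted p = 0.114), and the 3 probes gave 2.01, 0.32 and 0.20. The large value came from the probe that was above background on 0 miR-126+/+ arrays. The regions chr4:147105275-147171025 (plus strand, 1.09 ± 0.17, limma adjusted p = 0.0888) and chr14:8576576-8624104 (minus strand, 1.66 ± 0.24, 0.069, at least 1.54-fold) also had a kept probe that was above background in miR-126-/- alone. Every kept probe of both regions passed the filter through miR-126-/- alone.

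Whether a region's probes gave like values could be read only where more than 1 was kept. Of the 62 differences of 2-fold or more that rested on 1 kept probe, 53 were in regions with other designed probes, and these were below the filter. Of the 15 with 2 or more kept probes, 12 had the same sign in all kept probes and 2 reached 2-fold in each. In all 1563 regions with at least 2 kept probes, the differences of 1 pair of kept probes from each region had a correlation across regions of 0.21. In 773 (49.5%) all kept probes had the same sign. With exactly 2 kept probes the signs were the same in 60.6% of 632 regions. Agreement followed distance. Pairs of kept probes of a region that overlapped on the chromosome had r = 0.74 (88 pairs), pairs 0 to 10 bases apart 0.33 (1225), pairs further than that and up to 100 bases apart 0.39 (1371), the next class, up to 1000 bases, 0.25 (2217), the class up to 10000 bases 0.14 (1114) and pairs further apart -0.0 (631). When both probes were above background on all 8 arrays the same values were 0.82 (72 pairs), 0.48 (862), 0.55 (956), 0.41 (1510), 0.25 (693) and 0.11 (378). Pairs share their arrays, probes enter several pairs, and these correlations describe the array without a test.

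The 1004 regions with 1 kept probe out of several designed had a median size of difference of 0.20, and 8.7% of them did not overlap between genotypes, beside 6.21% of all features. The 931 regions with 3 or more kept probes had 0.13 and 4.5%. Their median within-genotype SD was 0.22, against 0.30 with 1 kept probe. A single kept probe can also have passed the filter through 1 genotype alone. Averaging and the filter are thus part of this contrast, which is not read as a trait of the regions. Of the 527 regions in which all of 3 or more designed probes were kept, 1 had a difference of 2-fold or more (3.22% of all features) and 0 passed an adjusted p of 0.05 in limma (0.0504%), with 33 (6.3%) at an unadjusted p under 0.05 (10.2%).

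Strand was a further division. Of 3540 intervals, 1067 had probes to both strands, and among these both strands were kept in 533, F alone in 185 (17.3%), R alone in 209 (19.6%) and neither in 140 (13.1%). Where both were kept, the differences of the F and R regions had a correlation of -0.0 over the 533 intervals, and their signs were the same in 49.7%. Signal from both strands of an interval was thus common, and the differences on the 2 strands did not move together.

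Differences of lincRNA regions were set beside those of the nearest named gene that was kept and tested. A gene was placed by the stretch from its first to its last probe on the chromosome. Where that stretch overlapped the interval and the gene was on the same strand, r was 0.38 (285 regions) and the signs were the same in 66.7%. For a gene on the opposite strand the values were 0.06 (187 regions) and 58.3%. These classes can include intervals that lie between the probes of a gene and hold none of them. With the stretch outside the interval and up to 10000 bases away, r was 0.12 on the same strand (438 regions) and -0.1 on the opposite strand (286). In the next class, up to 100000 bases, r was 0.02 for both (693 and 598). Beyond that it was 0.07 on the same strand (200 regions) and 0.20 on the opposite strand (176), so r did not fall steadily with distance. The median distance from a region to the stretch of the nearest tested gene, overlaps included, was 16146 bases. Genes that were not tested can lie nearer. Of the kept regions, 1132 (39.5%) overlapped another kept region on their strand, and 129 kept probes shared a run of 30 bases with a gene's probe, so regions and genes are not all independent measurements; none of the 16 regions above shared such a run.

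Well-known long noncoding RNAs showed no change between genotypes that passed the test. Of a list of 80, 45 had a probe under that name and 35 were kept and tested as genes; 22 were higher and 13 lower in miR-126-/-, with a median difference of 0.05. In limma 0 passed the adjusted threshold and 0 reached an unadjusted p under 0.05, beside 10.2% of all features. The lincRNA regions laid over these transcripts gave the following values. Norad, which sequesters Pumilio proteins, had all 3 probes of its region (chr2:156213798-156216885, minus strand) kept, and the region read 4.6, 4.61, 4.53 and 4.48 in miR-126+/+ and 4.55, 4.51, 4.57 and 4.5 in miR-126-/-. The arrays agreed within 0.13 there, and the difference was -0.02 ± 0.07. Tug1, a nuclear and cytoplasmic lincRNA, had 4 kept regions laid over it, with differences from 0.04 to 0.11. Among them, chr11:3538125-3554450 on the plus strand (0.05) reads the strand opposite to Tug1, and the others read its own. The shortest, chr11:3542140-3546888 on the strand of Tug1, differed by 0.10 ± 0.12. Of the probes named for the gene itself, 7 gave differences from 0.03 to 0.17, and 1 gave -1.66. That probe fell within the dim patch, read -6.78 on miR-126-/- 4 and -0.14 to 0.23 on the other arrays, and gave 0.05 without miR-126-/- 4. The interval chr19:5771425-5848475 holds Malat1 and Neat1, nuclear RNAs of speckles and paraspeckles. Its minus-strand region, on the strand of both, was read by 1 kept probe, which lies at Malat1 (chr19:5795752-5795811), and differed by -0.05 ± 0.14. The plus-strand region was read by 10 probes further along, opposite Neat1, and differed by 0.07 ± 0.12, so the strands were read at different genes. Of the gene probes of Malat1, 3 gave -0.24 to -0.14, and 1 in the dim area gave -1.04 (-0.17 without miR-126-/- 4); the 6 of Neat1 gave 0.01 to 0.10. The region on the strand of Airn, the imprinted antisense transcript of Igf2r (chr17:12990484-13018375, plus strand), differed by 0.42 ± 0.24 (limma adjusted p = 0.645). That on Terc, the telomerase RNA (chr3:96215885-96218756, minus strand), differed by -0.30 ± 0.15 (0.583).

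Of the 44 kept regions over these transcripts, 2 (4.5%) did not overlap between genotypes, where 6.21% of all features did not, so the share was no larger here. Over Mirg, the microRNA host transcript of the imprinted Dlk1-Dio3 cluster, chr12:110973190-110987668 on the plus strand read -1.05, -1.32, -1.2 and -1.1 in miR-126+/+ and -1.37, -1.37, -1.51 and -1.41 in miR-126-/-, a difference of -0.25 ± 0.09 (limma adjusted p = 0.405); the brighter gene probe of Mirg, which entered the fit, gave -0.03 ± 0.16, and the other gave -0.20. Over Pantr1, a noncoding neighbour of the transcription factor gene Pou3f3, chr1:42689799-42749799 on the minus strand read -4.03, -4.24, -4.19 and -4.1 in miR-126+/+ and -5.69, -4.7, -5.49 and -5.07 in miR-126-/-. Its difference was -1.09 ± 0.21 (limma adjusted p = 0.159). Its 2 kept probes gave 0.03 and -2.22, and the second was above background on 3 miR-126+/+ arrays and 0 miR-126-/- arrays.

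Around Egfl7, the host gene of miR-126 (probe at chr2:26448142-26448201), the array had 32 lincRNA regions within 10 Mb, of which 26 were kept. None passed the adjusted threshold in limma (0.0504% of all features did), 4 (15.4%) reached an unadjusted p under 0.05 and 1 (3.8%) did not overlap between genotypes, beside 10.2% and 6.21% of all features; 9 were higher in miR-126-/- and the median difference was -0.06. The one without overlap was chr2:28260005-28260187 on the minus strand. It read -5.03, -5.51, -5.36 and -3.73 in miR-126+/+ and -2.7, -2.92, -2.63 and -2.94 in miR-126-/-, and miR-126+/+ 4 was the highest of the control arrays. Its difference was 2.11 ± 0.36 (limma adjusted p = 0.119). Without miR-126+/+ 4 it was 2.5, as leaving out the highest control array widens the gap. Its kept probe was above background on 1 miR-126+/+ array and all 4 miR-126-/- arrays, so it passed the filter through miR-126-/- alone. The probe end to end with it gave 0.60, and Ppp1r26, a gene for a protein phosphatase regulator 50752 bases away, gave 0.56 ± 0.18. The kept probe was:
chr2:28260075-28260134, kept: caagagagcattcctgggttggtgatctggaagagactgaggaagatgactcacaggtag

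The other 3 were chr2:33496712-33501183 (plus strand, near Lmx1b, -0.98 ± 0.31, limma adjusted p = 0.332), chr2:25774411-25783757 (minus strand, over Camsap1, -1.02 ± 0.40, 0.445) and chr2:22753100-22780375 (plus strand, 0.40 ± 0.15, 0.412). In each of these the genotypes overlapped and 1 probe was kept. The Lmx1b probe was well above background on 4 miR-126+/+ arrays and 2 miR-126-/- arrays, and the Camsap1 probe on 3 and 1. Both of these passed the filter through miR-126+/+ alone, while the probe of the last region passed in both genotypes.

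The 6 regions with the largest spread over the 8 arrays were mostly set by single arrays. In 4 of them the kept probe fell within the dim patch of the miR-126-/- 4 array and was low there alone. The region chr4:94742359-94822969 (plus strand, 25372 bases from Jun, an immediate early transcription factor gene) read between 4.94 and 5.56 on the 7 other arrays and 0.35 on miR-126-/- 4. The regions chr7:13533925-13544525 (plus strand), chr11:79551860-79552221 (minus strand) and chr14:61321789-61325711 (plus strand) fell to -7.08, -7.09 and -6.75 there, with all other arrays at -1.19 or above. The fifth was the chr5 region with the repeated word, described above. The sixth, chr3:137736327-137752677 on the plus strand, read -4.75, -1.57, -2.83 and -5.52 in miR-126+/+ and -0.25, -3.11, -4.72 and -4.4 in miR-126-/-, with no relation to genotype (0.55 ± 1.18).

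This chr3 region followed the skeletal muscle markers of each sample. It was read by 1 kept probe of 5 designed, well above background on 2 miR-126+/+ arrays and 3 miR-126-/- arrays. That probe thus passed the filter through miR-126-/- alone, and some of its values lie near background. The mean of the 23 muscle genes was -1.68, 2.4, 0.41 and -1.82 on the miR-126+/+ arrays and 2.87, 0.19, -1.4 and -0.98 on the miR-126-/- arrays. Its order over the 8 arrays was that of the region (Spearman's rho = 1.0, Pearson's r = 0.99; exact two-sided permutation p = 4.96e-05 and 2.48e-05, adjusted 0.00208 and 0.00104 over 42 relations of 6 regions with 7 lists). These are the smallest p-values the permutations can give, and without the 2 arrays farthest from the median r was 0.98. With 4 arrays a genotype no value within a genotype was computed. A region inside it on the same strand, chr3:137742666-137744470, had r = 0.95, and chrX:157038750-157039018 (plus strand) had 0.92; these 3 were all the lincRNA regions at or above 0.9 (0.1%, against 0.22% of all features). The part that muscle in the sample played in the signal was not tested.

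The seed of mmu-miR-126a-3p, the guide strand of miR-126, was looked for in the probes, as lincRNAs may carry sites for microRNAs. No other mature strand of miR-126 was searched, so the counts below cover this strand alone. The mature guide strand from RefSeq (GRCm38.p6), with the seed of bases 2 to 8 in capitals, was:
mmu-miR-126a-3p: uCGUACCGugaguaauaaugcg

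Its complement CGGTACG was found in 1 of 16181 lincRNA probes (0.01%), and CGTACCG, the other strand, also in 1. The one region with the match differed by -0.04. Probes cover 60 bases of a transcript, and no match says only that these letters are not in that window. The polyadenylation signal AATAAA stood in 634 probes (3.92%) on the strand of the probe and as TTTATT in 489 (3.02%). The 233 kept regions with AATAAA had a median difference of 0.04, beside 0.019 for all lincRNA regions. Of them 0 were called, where 0.0504% of all features were, so too few calls could be looked for to read that count. Among the 16 regions above, only the chr5 probe with the repeated word held it.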

How the data were processed

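RNA of 8 arteries (4 per genotype) was hybridised to Agilent mouse 8x60K arrays in 1 colour (Cy3). The authors deposited scanner tables of intensity per spot from Agilent Feature Extraction 10.7.3.1 (per the submitters' processing notes), background-subtracted and detrended within the array and placed on mm9 per the file headers. They also deposited a table of linear intensity per probe, which matched the scanner values.

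Here control spots and outlier flags were left out and spots of a probe averaged. The log2 signal minus the array's 75th percentile was fitted with limma 3.58.1 in R 4.3.3 with no covariate (6 residual degrees of freedom); other genes were represented by their brightest kept probe. Gene names came from the files and RefSeq accessions (26413 probes, 47.4%). A call is a Benjamini-Hochberg adjusted p under 0.05 over all features. The p-values measure the spread between these animals, and 4 per group limits the precision. Regions named are the called ones, the 8 of smallest p without overlap in each direction, the 6 of largest SD, those over listed noncoding RNAs and those within 10 Mb of Egfl7; members and lists were chosen with earlier results of these data known. Samples of the same number did not deviate together. Alternatives were normexp, quantile and other scalings, the deposited table, other filters and probe rules, intensity trend, array weights, a replicate block, marker covariates and leaving out the dim area or 1 array.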

Additional observations from a re-analysis of the deposited data

Results flagged for a closer look

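The limit used for Dixon's test is one that chance passes in about 1 group in 20. That rate does not hold here, since some regions were named for their large spread over these same arrays. In 7 of 62 groups of 4 arrays checked among the regions named, 1 array stood apart from the other 3 by this test. In 4 of these the array was miR-126-/- 4 and the kept probe lay in its dim area: -7.08 against 0.86 to 1.41 at chr7:13533925-13544525, -7.09 against -1.08 to -0.74 at chr11:79551860-79552221, -6.75 against -0.98 to -0.84 at chr14:61321789-61325711, and 0.35 against 5.06 to 5.26 at chr4:94742359-94822969. At chr17:84355587-84356863 miR-126-/- 3 was at -2.93, above the other miR-126-/- arrays at -3.4 to -3.38. At chr8:19959345-20020379 miR-126+/+ 3 was at -3.99, below -3.76 to -3.74. At chr11:3542140-3546888, over Tug1, miR-126-/- 3 was at -0.67, below -0.54 to -0.52.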

How the results depend on the processing

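The count of 3 called regions became 0 without a filter, with a filter on all 8 arrays, with the replicate block and with the adipocyte covariate, where 337, 227, 313 and 199 regions had an unadjusted limma p under 0.05. It was 5 with the brightest probe of a region, 6 without the dim area and 9 with array weights, each including the same 3; normexp background correction called 2 others. Leaving out 1 array gave 0 to 6. It was 0 when miR-126-/- 2 was left out (271 regions had an unadjusted p under 0.05). It was 1 in the absence of replicate 1 or 2 of miR-126+/+ or of replicate 1 or 3 of miR-126-/-, and 6 in that of replicate 4 of either genotype. Same-numbered samples correlated at 0.206, -0.29, -0.046 and 0.005, so the block pairs samples by a number alone. Why these counts moved was not tested. Of 636 values of 31 single regions under the alternatives, 579 kept their direction and their side of the threshold, 29 lost it, 15 passed it and 13 changed sign. Leaving out 1 array moved the difference at chr7:13533925-13544525 from -2.79 to 0.03, at chr11:79551860-79552221 from -1.9 to 0.22, at chr3:137736327-137752677 from -0.41 to 1.24 (-0.07 without miR-126+/+ 4) and on the strand of Malat1 from -0.14 to 0.06; the first 2 turned with miR-126-/- 4, and were 0.03 and 0.22 without the dim area too. With the adipocyte covariate the differences were 0.24 at chr11:79551860-79552221, 0.06 at chr14:61321789-61325711, 0.24 at chr4:94742359-94822969 and 0.03 at Norad. At Pantr1 the difference was 0.03 with the filter on all 8 arrays and with the brightest probe. Most lincRNA probes were close to background, and 5 of the 16 leading regions have only a bound in 1 genotype.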
